A study of Mus musculus with 6 samples.

Results

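The lysine methyltransferase and demethylase genes of GL261 cells were the 59 genes whose names begin with Kmt, Kdm, Setd, Nsd, Suv39h, Ehmt, Ezh or Prdm and a digit, or are Dot1l, out of 58334 genes in the transcript models. A further 2 matching names ending in "os", which mark opposite-strand RNAs, were left out. GL261 is a mouse glioma cell line. The study asked how its RNA changes after propionate, which is a short fatty acid that bacteria of the gut release. Propionate-treated cells received 1 uM sodium propionate (3 libraries, numbered 1, 4 and 5), and control cells received 1 uM sodium chloride (3 libraries, numbered 1, 2 and 3), and total RNA was taken at 4 h in both groups. The dose is given as labelled, is far below those commonly used for propionate on cultured cells, and was not checked against another source. The labels give no other genotype or agent, and whether libraries stem from separate cultures is not stated, so the spread behind each p-value may be technical. Of the 59 genes, 47 had a mean of at least 1 TPM (a transcript abundance that is per transcript length and relative to all RNA of the library) and were tested, as were 15509 genes in all.

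Methyltransferases of this kind place methyl groups on lysines of histones, mostly through a SET domain and with S-adenosylmethionine as methyl donor, while Dot1l works without a SET domain. Methylation of H3K4 marks promoters and enhancers, that of H3K36 and H3K79 marks transcribed gene bodies, and that of H3K9, H3K27 and H4K20 marks silent or compacted chromatin. Demethylases remove these groups: the LSD1 type uses flavin, and the JmjC type uses iron and 2-oxoglutarate, a link to central metabolism. In glioma the H3K27 axis is known for histone mutations that block the Ezh2 complex.

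Promoter windows of 300 bases (250 before to 50 after the start) were matched by symbol in the RefSeq table of build GRCm38.p6 for 43 of the 59 genes, with 59 windows. The dinucleotide CG, which reads the same on both strands, was counted in each window, and the window with most CG was taken for each gene. The median was 32 CG over the 34 tested members with a window, 17 over the 9 untested ones and 8 over all 27025 genes with a window. Of all windows, 94.6% held at least 1 CG, 31.4% at least 17, 14.2% at least 28 and 1.44% at least 47. The windows printed here are those of Kdm1a, the gene of highest level, windows of Kdm2b (1 upstream and 1 internal of its 4, which form 2 groups of starts) and of Kmt5a (2 of its 3), whose transcript models divide between such starts, and Prdm12, listed at 0 in every library. Each runs 5′ to 3′ along the strand of its gene, with every CG in capitals.
Kdm1a, chr4:136602674-136602973, minus strand: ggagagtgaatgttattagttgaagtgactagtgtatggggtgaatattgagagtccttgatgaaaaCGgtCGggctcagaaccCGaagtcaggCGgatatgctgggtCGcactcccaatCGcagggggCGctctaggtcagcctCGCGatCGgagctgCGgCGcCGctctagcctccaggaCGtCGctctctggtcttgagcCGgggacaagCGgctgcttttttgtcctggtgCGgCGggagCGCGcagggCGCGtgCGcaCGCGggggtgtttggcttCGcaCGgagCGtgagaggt
Kdm2b, upstream start, chr5:122989050-122989349, minus strand: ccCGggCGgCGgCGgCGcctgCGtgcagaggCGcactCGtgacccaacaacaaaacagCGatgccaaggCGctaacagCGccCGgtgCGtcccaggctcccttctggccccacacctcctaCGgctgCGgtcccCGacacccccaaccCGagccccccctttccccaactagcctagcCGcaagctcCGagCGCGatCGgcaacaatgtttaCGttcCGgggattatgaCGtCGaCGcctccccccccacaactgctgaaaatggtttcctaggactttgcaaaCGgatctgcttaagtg
Kdm2b, internal start, chr5:122900318-122900617, minus strand: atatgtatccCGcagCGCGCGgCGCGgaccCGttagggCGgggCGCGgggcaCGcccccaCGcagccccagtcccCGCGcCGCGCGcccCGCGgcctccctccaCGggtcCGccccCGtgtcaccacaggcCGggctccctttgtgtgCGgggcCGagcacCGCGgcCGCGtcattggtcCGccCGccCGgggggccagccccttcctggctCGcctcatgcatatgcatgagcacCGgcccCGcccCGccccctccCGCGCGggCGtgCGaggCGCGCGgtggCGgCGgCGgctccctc
Kmt5a, upstream start, chr5:124439680-124439979, plus strand: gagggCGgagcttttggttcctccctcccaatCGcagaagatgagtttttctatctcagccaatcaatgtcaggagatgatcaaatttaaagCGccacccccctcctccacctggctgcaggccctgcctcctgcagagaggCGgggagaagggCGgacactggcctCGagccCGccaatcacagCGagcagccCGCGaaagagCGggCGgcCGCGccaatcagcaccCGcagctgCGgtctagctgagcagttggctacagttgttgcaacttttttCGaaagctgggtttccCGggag
Kmt5a, downstream start, chr5:124445249-124445548, plus strand: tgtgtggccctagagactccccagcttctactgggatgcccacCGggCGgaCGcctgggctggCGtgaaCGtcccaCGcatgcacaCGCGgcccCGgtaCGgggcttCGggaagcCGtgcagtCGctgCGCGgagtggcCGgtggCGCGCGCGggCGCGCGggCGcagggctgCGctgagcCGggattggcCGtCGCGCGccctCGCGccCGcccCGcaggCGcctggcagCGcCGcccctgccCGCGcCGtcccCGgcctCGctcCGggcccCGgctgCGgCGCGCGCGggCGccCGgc
Prdm12, chr2:31639787-31640086, plus strand: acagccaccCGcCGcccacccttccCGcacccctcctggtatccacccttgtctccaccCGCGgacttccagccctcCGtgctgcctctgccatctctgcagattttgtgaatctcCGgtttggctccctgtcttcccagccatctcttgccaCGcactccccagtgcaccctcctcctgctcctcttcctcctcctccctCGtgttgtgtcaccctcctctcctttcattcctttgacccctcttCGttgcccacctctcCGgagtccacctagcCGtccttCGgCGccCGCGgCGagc
The Kdm1a window held 29 CG. The upstream window of Kdm2b held 28 and its internal window 47, and the upstream window of Kmt5a held 18 and its downstream window 51. The Prdm12 window, of the gene listed at 0, held 17, the fewest of those printed but close to the 18 of Kmt5a. Over the members with a window, tested ones held 1 to 65 CG and untested ones 8 to 32. These ranges overlap, and a link between CG and RNA level was not tested.

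Of the glial and neural progenitor markers, Vim averaged 3246 TPM in propionate and 2998 TPM in chloride libraries, and Sox2, Nes, S100b, Cspg4 and Cd44 were also present. Pdgfra was lower, at 5.63 TPM in propionate and 5.94 TPM in chloride libraries. Olig2 averaged 1.585 TPM in propionate and 1.433 TPM in chloride libraries, and Gfap 0.731 and 1.14 TPM, while Sox9 was at or near 0. Summed levels of the 10 glial and neural progenitor markers were 3824 to 4205 TPM in propionate and 3544 to 3969 TPM in chloride libraries, most of it Vim. Sums of 7 microglia and macrophage markers were 4.76 to 6.15 TPM in propionate and 4.61 to 6.26 TPM in chloride libraries, with Itgam and Tyrobp at 0. Lymphoid markers (6 genes) summed to at most 0.0878 TPM in propionate and 0.124 TPM in chloride libraries, endothelial markers (5 genes) to at most 0.327 and 0.139 TPM, and erythroid markers (4 genes) to at most 0.985 and 1.29 TPM. The 5 neuronal markers summed to 73.9 to 89.9 TPM in propionate and 78.1 to 79.01 TPM in chloride libraries, almost all of it Tubb3, with Rbfox3 and Snap25 at 0. The 5 fibroblast and pericyte markers summed to 76.5 to 100.4 TPM in propionate and 87.0 to 99.7 TPM in chloride libraries, almost all of it Col1a1. StringTie counted 9.33, 11.3 and 11.1 Gb of bases in propionate 1, 4 and 5, and 9.41, 9.47 and 9.15 Gb in chloride 1, 2 and 3. Propionate 1 and chloride 3 stood apart from the rest, with 71192 and 71452 covered transcripts against 81178 to 82370 in the other 4 libraries. Log2 differences without 1 or both of them are given below for some of the members.

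GL261 cells carried RNA of nearly the whole set of histone lysine methylation enzymes. Levels given are TPM scaled between libraries by a median ratio. Mean levels of the 47 tested members ran between 1.82 TPM (Setd4) and 71.9 TPM (Kdm1a), with a median of 15.6 TPM beside 12.6 TPM over all tested genes. The 10 members over 40 TPM were Kdm1a, Ezh2, Nsd2, Setd3, Prdm4, Suv39h1, Ehmt2, Kmt5a, Kdm5a and Kdm3a, and 30 members were over 10 TPM. The 47 tested members together summed to 1056, 1021 and 1014 TPM in propionate 1, 4 and 5, against 1036, 1022 and 1059 TPM in chloride 1, 2 and 3. These sums overlap between the groups.

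**Figure D1:**
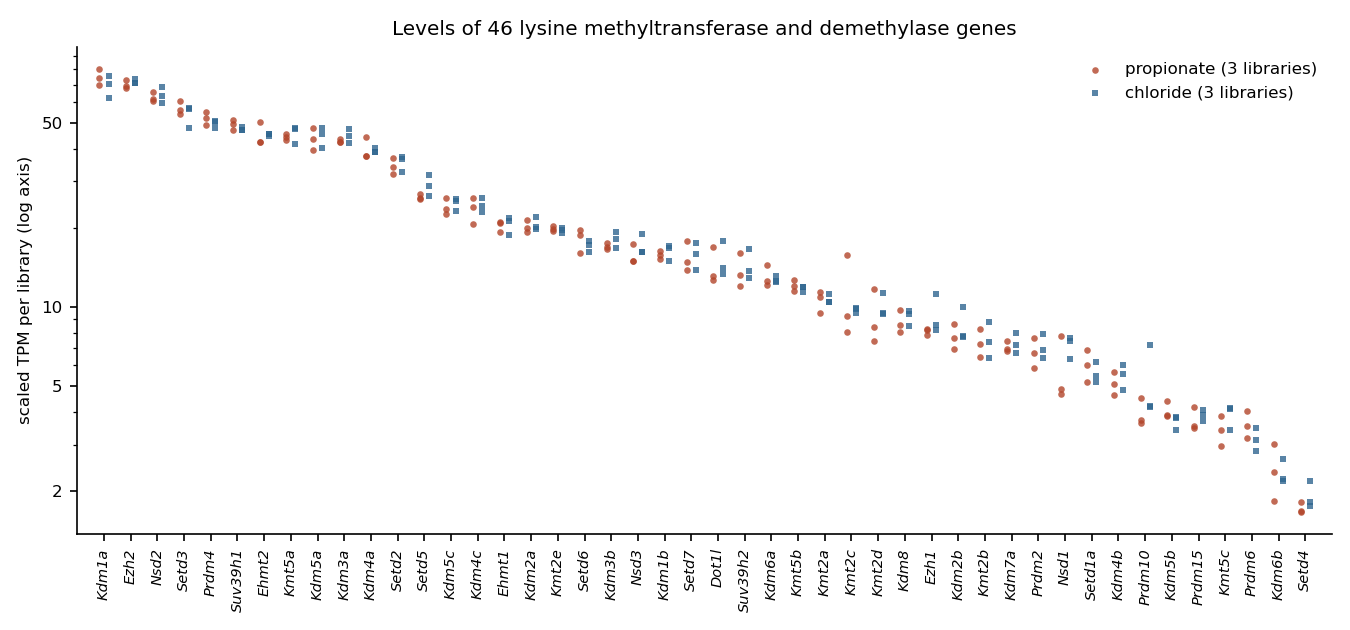
Scaled TPM of 46 of the 47 tested members, ordered by mean level, on a log axis. Each point is a library, with propionate as circles on the left and chloride as squares on the right of each gene. The points of a gene mostly lie within a narrow band, between a mean of 71.9 TPM for Kdm1a and 1.82 TPM for Setd4.

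The 12 untested members included genes known from germ cells or testis. Prdm8, Prdm11, Prdm12, Prdm13, Prdm16 and the Y-linked Kdm5d were listed at 0 in all 6 libraries. Prdm1 and Prdm14, known for germ cell specification, and the pseudogene Kdm4dl reached at most 0.0504 TPM in any library. Prdm9, which sets meiotic recombination sites, was at 0.133, 0.327 and 0.518 TPM in propionate 1, 4 and 5 and at 0.457, 0.467 and 0.0953 TPM in chloride 1, 2 and 3. Kdm4d, a testis-enriched H3K9 demethylase, was at 0.270, 0.312 and 0.237 TPM in propionate and 0.244, 0.0808 and 0.155 TPM in chloride libraries. Setd1b, an H3K4 methyltransferase of the COMPASS type, fell just under the limit at 1.04, 0.689 and 1.18 TPM in propionate and 0.934, 0.949 and 0.904 TPM in chloride libraries. None of these was tested, and a value of 0 from this quantifier can be a failed estimate.

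No member differed between propionate and chloride at the threshold. By limma on log2(scaled TPM + 1), with Benjamini-Hochberg adjustment over all tested genes, 0 of 47 members had an adjusted p under 0.05, beside 0.00645% of all genes (1 gene), and their lowest adjusted p was 0.913. At an unadjusted p under 0.05 there were 0 members, beside 5.15% of all genes, and their lowest p was 0.127. Groups did not overlap for 1 member, Kdm5b (2.13% of members), beside 11.7% of all genes. By sign 14 members were higher and 33 lower in propionate libraries (29.8% higher, against 51.8% of all genes), with a median log2 difference of -0.04 beside 0.01 over all genes and a range of -0.29 to 0.14. That split varied with the scaling and with the libraries kept. It was 4 higher and 43 lower in unscaled TPM, where the median of all genes was also shifted to -0.08. Without chloride 3 or without propionate 4 it was 23 higher and 24 lower. It stayed uneven in other settings, at 12 higher and 35 lower without propionate 1 or without both propionate 1 and chloride 3. With library weights it was 13 and 34, and with voom on estimated reads 16 and 31. Levels in bulk RNA cannot tell a change in every cell from a change in a share of the cells.

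The intervals hold for this scaling and for the spread between these libraries. That spread may be technical, so they need not bound the effect of propionate. In unscaled TPM the members' median log2 difference was -0.13, against -0.04 with scaling. The 95% interval of the fold change lay within 1.25-fold either way for 29 of 47 members (61.7%, against 43.9% of all genes), within 1.5-fold for 44 (93.6%, against 78.0%) and within 2-fold for all 47 (93.7% of all genes). The median standard error was 0.09 on the log2 scale for members and 0.11 for all genes. Intervals reached beyond 1.5-fold for Nsd1, Prdm10 and Kmt2c, which are described with their roles. All fold changes and log2 differences are of TPM + 1, propionate over chloride, which understates changes of low genes.

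**Figure D2:**
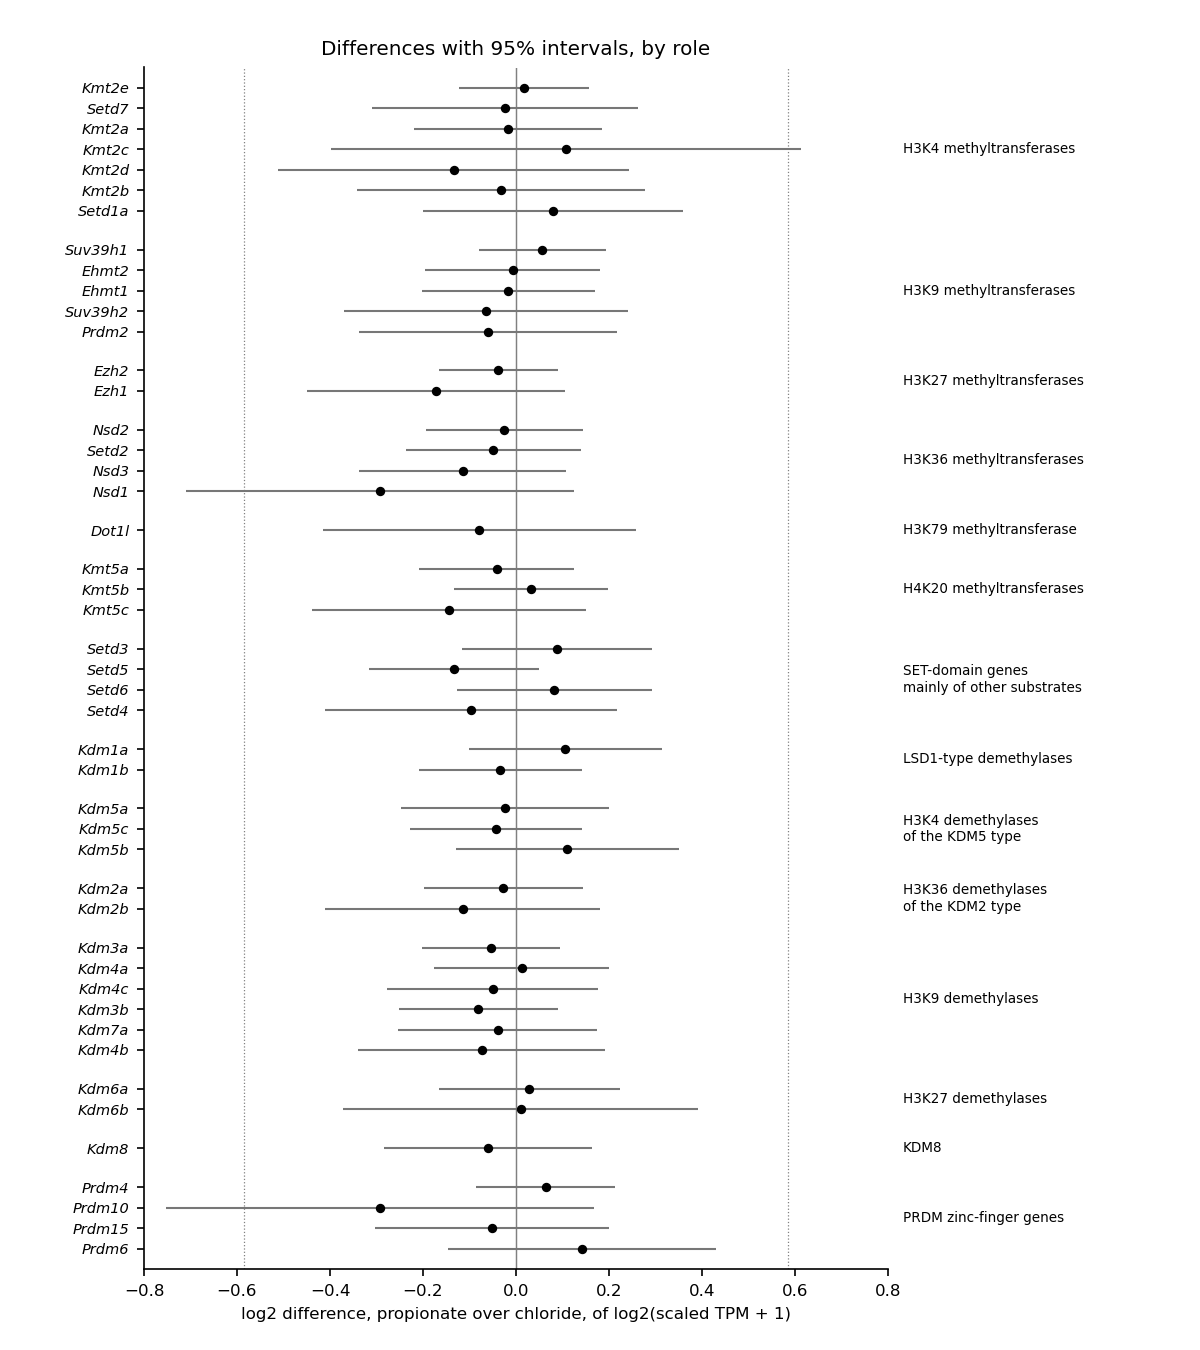
Log2 difference of 46 of the 47 tested members (points) with its 95% interval from limma (bars), propionate over chloride, grouped by role from top to bottom. Dotted lines mark 1.5-fold either way. Every interval drawn crosses 0, and those of Nsd1, Prdm10 and Kmt2c pass a dotted line.

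The H3K4 methyltransferases gave no shared direction, with 3 of 7 tested members higher and 4 lower by sign. Kmt2e, whose SET domain has little known activity and which led the group in level, was at 19.4, 19.8 and 20.3 TPM in propionate 1, 4 and 5, against 19.1, 19.6 and 20.04 TPM in chloride 1, 2 and 3. These ranges overlap, and its log2 difference was 0.02 ± 0.06 (SE). Kmt2a and Kmt2b, the catalytic subunits of the menin complexes, averaged 10.6 ± 0.954 and 7.30 ± 0.902 TPM in propionate against 10.7 ± 0.414 and 7.51 ± 1.18 TPM in chloride libraries (SD, n = 3 each). Setd7, which also methylates many other proteins, averaged 15.5 ± 2.13 TPM in propionate and 15.7 ± 1.85 TPM in chloride libraries. Setd1a, of the COMPASS type, averaged 6.02 ± 0.836 TPM in propionate and 5.63 ± 0.516 TPM in chloride libraries, and it shares its locus with other reference genes.

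Kmt2c and Kmt2d, the enhancer H3K4 monomethyltransferases, had larger SDs in the propionate group than the other tested genes of this role. Kmt2c was at 15.7, 8.06 and 9.25 TPM in propionate 1, 4 and 5, against 9.50, 9.86 and 9.90 TPM in chloride 1, 2 and 3. Propionate 1 alone was high and the other 2 propionate libraries lay below all chloride libraries. Read numbers estimated from coverage and model length were more even for Kmt2c, at 6915, 6047 and 6655 in propionate and 6834, 6967 and 7626 in chloride libraries. Kmt2d was at 11.7, 7.46 and 8.39 TPM in propionate and 9.41, 9.47 and 11.3 TPM in chloride libraries, with an overlap that propionate 1 makes. In propionate 1 an assembled model of 22011 nt held 8.785 TPM of this, and that model extends past the annotated end of Kmt2d. Reference transcripts of Kmt2d were lowest in propionate 1, at 0.245 TPM, and the gene shares its locus with another reference gene. The 95% interval of the fold was 0.759 to 1.53 for Kmt2c and 0.702 to 1.18 for Kmt2d. The log2 difference of Kmt2c was 0.11 ± 0.21 (SE) in TPM and -0.13 in estimated reads with voom of limma, so its sign is not settled. That of Kmt2d was -0.13 ± 0.16 (SE) in TPM and -0.14 in estimated reads.

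Genes of H3K9 methylation differed by little. Suv39h1, which trimethylates H3K9 at pericentric heterochromatin, was at 51.5, 49.7 and 46.9 TPM in propionate 1, 4 and 5, against 48.4, 46.9 and 46.9 TPM in chloride 1, 2 and 3. Its groups overlap through propionate 5, and the log2 difference was 0.06 ± 0.06 (SE). Its paralog Suv39h2 averaged 13.8 ± 2.04 TPM in propionate and 14.4 ± 1.91 TPM in chloride libraries (SD, n = 3 each). Ehmt2 and Ehmt1, the G9a and GLP partners that dimethylate H3K9, averaged 45.1 ± 4.68 and 20.4 ± 0.987 TPM in propionate against 45.2 ± 0.464 and 20.7 ± 1.62 TPM in chloride libraries. Prdm2, the RIZ gene, averaged 6.74 ± 0.890 TPM in propionate and 7.06 ± 0.750 TPM in chloride libraries.

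Ezh2, the main catalytic subunit of Polycomb repressive complex 2, was among the most even members. It was at 72.8, 67.9 and 69.2 TPM in propionate 1, 4 and 5, against 70.8, 71.1 and 73.7 TPM in chloride 1, 2 and 3. The groups overlap, and the 95% interval of the fold was 0.891 to 1.06. Ezh1, the paralog more prominent in cells that do not divide, was at 7.86, 8.22 and 8.17 TPM in propionate and 8.57, 8.20 and 11.2 TPM in chloride libraries. Chloride 3 was the high library of Ezh1, and propionate 4 and chloride 2 nearly coincide. The log2 difference of Ezh1 was -0.17 ± 0.12 (SE; limma adjusted p 0.913), or -0.05 without chloride 3.

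All 4 H3K36 methyltransferases were lower by sign in propionate libraries, none past the threshold. Nsd1, an H3K36 dimethyltransferase mutated in overgrowth syndromes, was at 4.87, 4.67 and 7.73 TPM in propionate 1, 4 and 5, against 7.43, 6.35 and 7.60 TPM in chloride 1, 2 and 3. In TPM, propionate 5 was the highest library of all and makes the groups overlap. In estimated reads it does not: Nsd1 had 2550, 2530 and 2655 in propionate and 2818, 3186 and 2994 in chloride libraries. The log2 difference of Nsd1 was -0.29 ± 0.18 (SE) in TPM, or -0.16 without both propionate 1 and chloride 3, and -0.22 in estimated reads, where voom of limma gave an unadjusted p of 0.0149 and an adjusted p of 0.896. With library weights the TPM difference of Nsd1 was 0.04, so its sign is not settled.

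Nsd3 was the other H3K36 gene with an unadjusted p among the lowest of its direction, at 17.3, 14.9 and 15.0 TPM in propionate 1, 4 and 5 and 16.2, 16.2 and 19.0 TPM in chloride 1, 2 and 3. Propionate 1 lay above chloride 1 and 2, and the log2 difference was -0.11 ± 0.09 (SE), or -0.04 without chloride 3. Nsd2, the highest of the group and the gene deleted in the Wolf-Hirschhorn region, was at 61.7, 60.4 and 65.9 TPM in propionate and 63.3, 59.4 and 68.8 TPM in chloride libraries. The libraries of the groups interleave, with a log2 difference of -0.02 ± 0.07 (SE). Setd2, the H3K36 enzyme of trimethylation that travels with RNA polymerase II, averaged 34.3 ± 2.42 TPM in propionate and 35.5 ± 2.51 TPM in chloride libraries (SD, n = 3 each).

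Dot1l, the H3K79 methyltransferase, was at 16.95, 12.6 and 13.1 TPM in propionate 1, 4 and 5, against 14.1, 13.4 and 17.8 TPM in chloride 1, 2 and 3. The 2 high libraries were propionate 1 and chloride 3, and the log2 difference was -0.08 ± 0.14 (SE), or 0.04 without chloride 3. Kmt5a, the H4K20 monomethyltransferase, was at 45.6, 44.2 and 43.1 TPM in propionate and 47.5, 41.8 and 47.9 TPM in chloride libraries, with a log2 difference of -0.04 ± 0.07 (SE). Its groups overlap. Kmt5c, which makes H4K20 trimethylation, was at 3.87, 2.97 and 3.41 TPM in propionate and 3.40, 4.13 and 4.10 TPM in chloride libraries. Propionate 1 and 5 exceeded chloride 1, and the log2 difference of Kmt5c was -0.14 ± 0.12 (SE). Its partner Kmt5b averaged 12.1 ± 0.603 TPM in propionate and 11.8 ± 0.291 TPM in chloride libraries (SD, n = 3 each).

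In the group listed here as SET-domain genes mainly of other substrates, Setd5 had the smallest unadjusted p by limma of all members (0.127). The group is a chosen list, and the substrate of Setd5 was not tested. Setd5 was at 26.8, 26.0 and 25.8 TPM in propionate 1, 4 and 5, against 26.4, 28.7 and 31.7 TPM in chloride 1, 2 and 3. Propionate 1 exceeded chloride 1, which makes the overlap, and chloride 3 was the highest library. The log2 difference was -0.13 ± 0.08 (SE; limma adjusted p 0.913), or -0.07 without chloride 3. Setd3, which methylates actin on a histidine, was at 53.9, 60.9 and 56.2 TPM in propionate and 56.3, 57.0 and 47.8 TPM in chloride libraries. Chloride 3 was the low library of Setd3, and its log2 difference was 0.09 ± 0.09 (SE), or 0.01 without chloride 3. Setd6 and Setd4 averaged 18.2 ± 1.84 and 1.73 ± 0.0831 TPM in propionate against 17.0 ± 0.832 and 1.92 ± 0.235 TPM in chloride libraries (SD, n = 3 each).

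Kdm1a, the flavin-dependent H3K4 demethylase LSD1, was the member of highest level, at 69.5, 80.2 and 74.0 TPM in propionate 1, 4 and 5, against 70.3, 75.3 and 62.3 TPM in chloride 1, 2 and 3. Propionate 1 lay below chloride 1 and 2, so the groups overlap. The log2 difference was 0.11 ± 0.09 (SE; limma adjusted p 0.926), or 0.03 without chloride 3. Kdm1b, its paralog, averaged 15.8 ± 0.515 TPM in propionate and 16.2 ± 1.15 TPM in chloride libraries (SD, n = 3 each).

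Kdm5b, an H3K4 demethylase of the JmjC type, was the only one of the 47 tested members whose scaled TPM did not overlap between groups. It was at 4.38, 3.87 and 3.90 TPM in propionate 1, 4 and 5, against 3.79, 3.82 and 3.42 TPM in chloride 1, 2 and 3. The gap between the lowest propionate and the highest chloride library was small, and the log2 difference was 0.11 ± 0.10 (SE; limma adjusted p 0.931), or 0.02 without both propionate 1 and chloride 3. In unscaled TPM the groups of Kdm5b overlap, and those of 4 other members do not (Ezh1, Kdm3b, Setd4 and Setd5, all lower). In estimated reads the groups of Kdm5b overlap, with 1424, 1539 and 1553 in propionate and 1477, 1474 and 1389 in chloride libraries. Kdm5a was at 39.6, 47.9 and 43.7 TPM in propionate and 40.1, 45.4 and 48.0 TPM in chloride libraries, and these interleave. Its log2 difference was -0.02 ± 0.09 (SE). The X-linked Kdm5c averaged 24.0 ± 1.84 TPM in propionate and 24.8 ± 1.39 TPM in chloride libraries (SD, n = 3 each).

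The KDM2 genes, whose proteins bind unmethylated CpG and demethylate H3K36, overlapped between the groups. Kdm2a was at 21.3, 19.2 and 19.9 TPM in propionate 1, 4 and 5, against 20.1, 19.7 and 22.0 TPM in chloride 1, 2 and 3. Propionate 1 and chloride 3 were the high libraries, and the log2 difference was -0.03 ± 0.07 (SE). Kdm2b averaged 7.73 ± 0.862 TPM in propionate and 8.48 ± 1.31 TPM in chloride libraries (SD, n = 3 each).

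Of the 6 tested H3K9 demethylases, 1 was higher and 5 lower by sign. Kdm3a, which removes mono- and dimethylation of H3K9, was at 43.6, 42.5 and 42.4 TPM in propionate 1, 4 and 5, against 44.5, 41.9 and 47.3 TPM in chloride 1, 2 and 3. Chloride 2 was below every propionate library, and the log2 difference was -0.05 ± 0.06 (SE). Kdm4a, Kdm4b and Kdm4c, which also act on trimethylated H3K9, averaged 39.7 ± 4.07, 5.14 ± 0.524 and 23.6 ± 2.68 TPM in propionate against 39.3 ± 0.775, 5.47 ± 0.593 and 24.4 ± 1.57 TPM in chloride libraries (SD, n = 3 each). Kdm3b and Kdm7a averaged 17.0 ± 0.528 and 7.06 ± 0.313 TPM in propionate against 18.1 ± 1.25 and 7.30 ± 0.659 TPM in chloride libraries. The summed H3K9 demethylase level was 138.4, 134.8 and 133.7 TPM in propionate and 138.8, 138.7 and 140.1 TPM in chloride libraries, so the sums did not overlap, by a gap of under 1 TPM.

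For H3K27 demethylation, the X-linked Kdm6a was at 14.4, 12.1 and 12.5 TPM in propionate 1, 4 and 5, against 12.6, 12.5 and 13.1 TPM in chloride 1, 2 and 3. Only propionate 1 exceeded all 3 chloride libraries, and the log2 difference was 0.03 ± 0.08 (SE), or -0.04 without propionate 1. Kdm6b, an inducible paralog, averaged 2.40 ± 0.590 TPM in propionate and 2.35 ± 0.256 TPM in chloride libraries (SD, n = 3 each). Kdm8, a JmjC-domain gene, was at 8.57, 9.74 and 8.04 TPM in propionate and 8.51, 9.44 and 9.63 TPM in chloride libraries, with a log2 difference of -0.06 ± 0.09 (SE). Its libraries interleave.

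Only 5 of the 13 PRDM zinc-finger genes of the last group were tested. Prdm4, the highest, was at 54.9, 52.4 and 49.0 TPM in propionate 1, 4 and 5, against 51.0, 47.9 and 50.4 TPM in chloride 1, 2 and 3, with a log2 difference of 0.06 ± 0.06 (SE). Propionate 5 lay among the chloride libraries. Prdm6, a repressor known from smooth muscle, was at 4.03, 3.53 and 3.17 TPM in propionate and 3.12, 3.47 and 2.84 TPM in chloride libraries, with a log2 difference of 0.14 ± 0.12 (SE), or 0.07 without propionate 1 and 0.02 without both propionate 1 and chloride 3. In estimated reads its groups did not overlap, with 508, 438 and 392 in propionate and 382, 355 and 358 in chloride libraries, and voom of limma gave an adjusted p of 0.896. Prdm10 was at 4.50, 3.62 and 3.73 TPM in propionate and 4.19, 4.21 and 7.19 TPM in chloride libraries. Chloride 3 alone was high, and the log2 difference of Prdm10 was -0.29 ± 0.19 (SE; limma adjusted p 0.913), or -0.07 without chloride 3. Prdm15 averaged 3.73 ± 0.384 TPM in propionate and 3.89 ± 0.189 TPM in chloride libraries (SD, n = 3 each).

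The balance of members that write and erase a mark was also compared by library. Only genes matching the name rule were summed, so these ratios do not cover every enzyme of a mark. Left out, among others, were Setdb1 (25.3 TPM in propionate and 26.2 TPM in chloride libraries) and Jmjd1c (58.4 and 61.7 TPM). For H3K4, summed methyltransferase TPM over summed demethylase TPM (Kdm1a and Kdm1b with the KDM5 genes) was 0.595, 0.421 and 0.480 in propionate 1, 4 and 5, against 0.498, 0.463 and 0.555 in chloride 1, 2 and 3. For H3K9 it was 1.03, 0.989 and 0.975 in propionate and 0.997, 0.946 and 0.960 in chloride libraries. Both ratios overlap between the groups, and RNA of H3K4 demethylases exceeded that of H3K4 methyltransferases in all 6 libraries. For H3K27 the ratio was 4.63, 5.46 and 5.20 in propionate and 5.37, 5.40 and 5.40 in chloride libraries, and for H3K36, with Kdm2a and Kdm2b as the only demethylases, it was 4.03, 4.29 and 4.45 in propionate and 4.45, 4.18 and 4.15 in chloride libraries. With Kdm4a, Kdm4b and Kdm4c, which also act on H3K36, counted as well, a choice made after the values were seen, the H3K36 ratio was 1.198, 1.19 and 1.30 in propionate and 1.29, 1.17 and 1.32 in chloride libraries, and overlapped too. The H3K27 ratio of propionate 1 was the lowest, with Kdm6a and Kdm6b both high there, and the other propionate libraries lay on either side of the chloride values. Sums of RNA say nothing of enzyme activity.

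**Figure D3:**
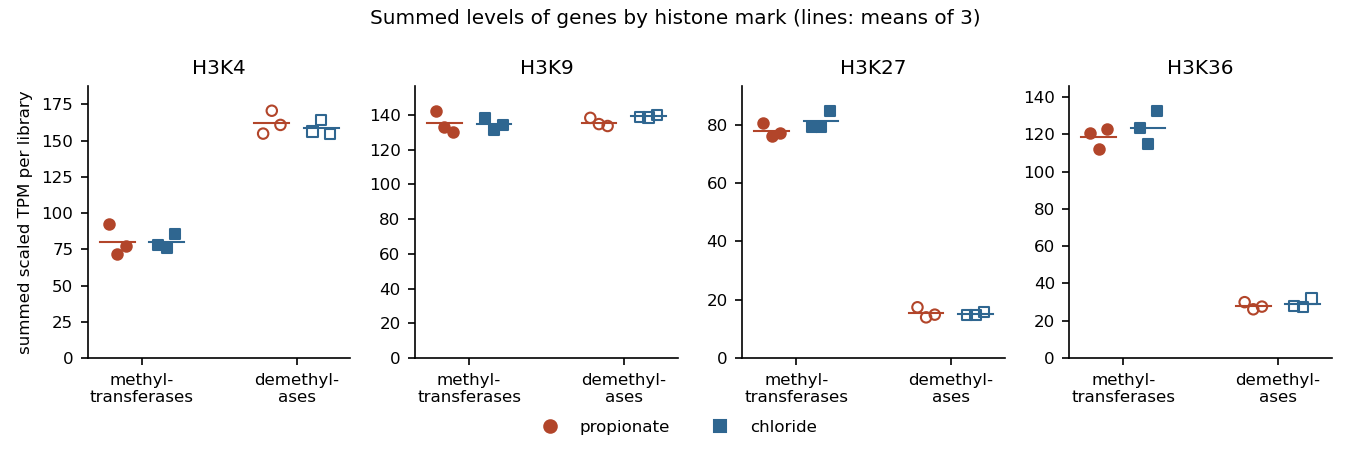
Summed scaled TPM of methyltransferase members (filled) and demethylase members (open) of 4 histone marks, with 1 point per library. Propionate (circles) is left of chloride (squares), and lines are at the means of 3. Groups overlap in all panels for the methyltransferases, the H3K9 demethylases do not overlap by a narrow gap, and the H3K4 demethylases have the higher sum in all 6 libraries.

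The 7 pairs of paralogs compared kept their order in every library. Ezh2 exceeded Ezh1 by 6.60 to 9.25 times, Kdm5a exceeded Kdm5b by 9.05 to 14.03 times, and Kdm6a exceeded Kdm6b by 4.78 to 6.59 times. Kdm1a exceeded Kdm1b by 4.13 to 4.91 times, Suv39h1 exceeded Suv39h2 by 2.92 to 4.29 times, Kdm2a exceeded Kdm2b by 2.20 to 2.78 times, and Ehmt2 exceeded Ehmt1 by 2.01 to 2.42 times. These are ratios of levels per length, given over all 6 libraries. Kmt2c and Kmt2d, described above, did not keep theirs: Kmt2d was the higher in chloride 3 alone.

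Sums over all models of a gene were far more even than the models themselves. The files hold reference transcripts and transcripts assembled from reads, and 82 of the 559 models of these genes were assembled, spread over 29 of the 47 tested members. For those 29, the highest library exceeded the lowest by a median of 1.90 times with reference transcripts alone and 1.20 times with all models. With reference transcripts alone 14 of the 29 spread over 2-fold between libraries, and with all models 0 did. For the 18 members without assembled models the median was 1.28 times either way.

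Ezh2, Prdm4, Setd2 and Kdm3a are examples, and the widest spread was 169.8 times, in Prdm2. Ezh2 reference transcripts held 26.0, 19.9 and 22.5 TPM in propionate 1, 4 and 5, against 20.3, 18.5 and 53.3 TPM in chloride 1, 2 and 3, while the sum over all models stayed between 67.9 and 73.7 TPM. Chloride 3 alone was high, and an assembled model of 2789 nt held 9.42 TPM there and 28.6 to 46.6 TPM in the other 5 libraries. Prdm4 reference transcripts held 51.0, 37.6 and 27.2 TPM in propionate and 6.45, 45.5 and 49.8 TPM in chloride libraries, with sums of 47.9 to 54.9 TPM. Setd2 reference transcripts held 11.6, 3.61 and 9.68 TPM in propionate and 13.2, 6.46 and 19.5 TPM in chloride libraries, with sums of 32.0 to 37.3 TPM. Those of Kdm3a held 34.5, 21.4 and 18.0 TPM in propionate and 35.2, 22.6 and 46.7 TPM in chloride libraries, with sums of 41.9 to 47.3 TPM. In each of these genes 1 library or more departs widely in its reference transcripts and not in its sum.

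**Figure D4:**
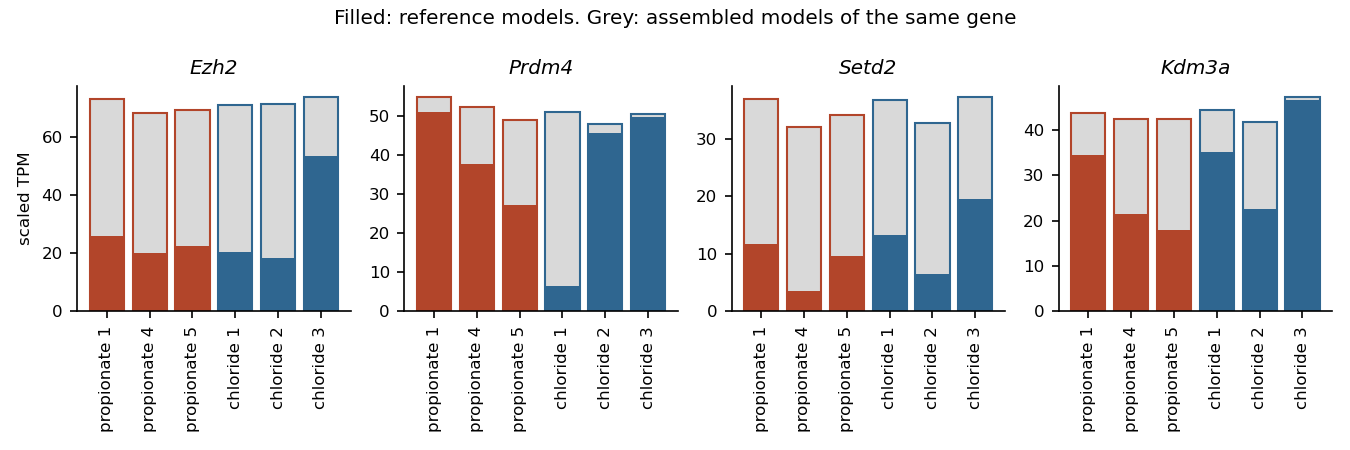
Scaled TPM of Ezh2, Prdm4, Setd2 and Kdm3a in each library (propionate outlined in red, then chloride in blue). The filled part is the sum of reference transcripts and the grey part that of assembled models. Bar tops are nearly level, at 67.9 to 73.7 TPM for Ezh2, while filled parts range between 18.5 and 53.3 TPM.

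Kdm4b, an H3K9 and H3K36 demethylase, would read differently from reference transcripts alone. These held 4.37, 4.09 and 3.02 TPM in propionate 1, 4 and 5, against 2.35, 0.993 and 0.134 TPM in chloride 1, 2 and 3, with no overlap. An assembled model of 5889 nt held 1.31, 0.542 and 2.1 TPM in propionate and 2.48, 5.01 and 5.44 TPM in chloride libraries, also with no overlap and in the other direction. The sum ran between 4.63 and 6.002 TPM and overlapped between the groups. With reference transcripts alone, groups did not overlap for 4 of 46 members (8.70%), beside 10.8% of all genes. Kdm4b had the smallest limma unadjusted p of those 46 members (0.0183), with an adjusted p of 0.941. The assembled model and the reference transcript of 5768 nt differ little in length, and what divides reads between them was not tested.

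Transcript models gave no call either. Of 35755 tested models, 167 belonged to members (46 genes), and 0 of these had a limma adjusted p under 0.05, beside 0.0364% of all models. At an unadjusted p under 0.05 there were 5 (2.99% of member models), beside 4.58% of all models, and groups did not overlap for 15 (8.98%), beside 12.3%. The 5 models belong to Kdm4b, Kmt5b, Suv39h1, Prdm4 and Kmt2c, named here after their values were seen, and their lowest unadjusted p was 0.0205 with an adjusted p of 0.863. The median standard error was 0.37 for member models, against 0.09 for the members as genes. The model of highest TPM was the same in all 6 libraries for 15 of the 47 tested members and differed between libraries for 32.

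Start sites were then set beside the models. Models that begin within 1000 bases of a start in the table were assigned to the nearest such start. Most members with a window were read near a start of the promoter table. Models beginning within 500 bases of such a start held a median of 94.5% of TPM, and over 80% for 26 of the 34 tested members with a window. Of the other 8, 2 were under 20% on average over the 6 libraries: Setd5 with 2.47% and Setd1a with 9.11%, where Setd1a was at 38.6% in propionate 4 and at 1.71% to 5.49% in the other 5 libraries. The assembled models of Setd5, which hold most of its TPM, begin at 113077365 to 113077582 on chromosome 6, where the annotated gene also starts. Its 1 window lies elsewhere, so the low share of Setd5 does not mean that its annotated start was unused. Kdm2b models at the upstream start, whose window is printed above, held 3.64, 4.75 and 5.28 TPM in propionate 1, 4 and 5, against 4.84, 3.52 and 4.72 TPM in chloride 1, 2 and 3. The model at its internal window held 4.44, 1.92 and 2.08 TPM in propionate and 2.53, 3.74 and 4.91 TPM in chloride libraries. The internal start was high in propionate 1 and chloride 3, and both starts overlapped between the groups.

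Kmt5a divided its models over 3 groups of starts. The upstream group, at the window with 18 CG, held 13.2, 19.4 and 20.6 TPM in propionate 1, 4 and 5, against 14.7, 22.0 and 26.7 TPM in chloride 1, 2 and 3. The group at the window with 51 CG held 31.6, 6.23 and 20.5 TPM in propionate and 26.1, 16.5 and 9.41 TPM in chloride libraries. The third and most downstream group held 0.408, 18.2 and 1.12 TPM in propionate and 5.98, 1.68 and 10.5 TPM in chloride libraries. Shares moved several-fold between libraries of 1 group, while the gene's total stayed between 41.8 and 47.9 TPM.

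**Figure D5:**
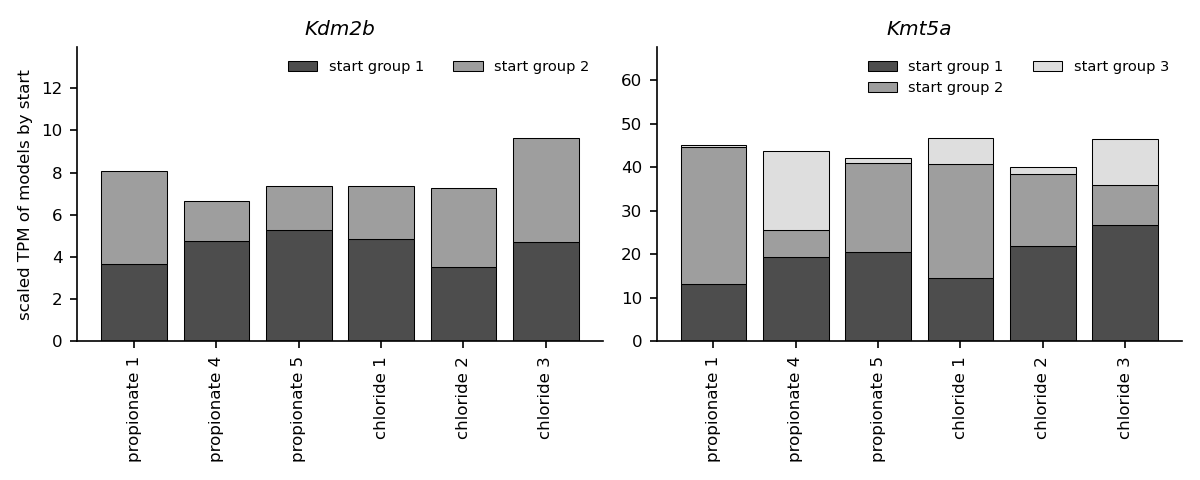
Scaled TPM of Kdm2b and Kmt5a models by group of start sites, stacked, in each library (propionate left, chloride right). Start group 1 is the most upstream along the gene, and models that begin elsewhere are not drawn. Kmt5a totals are similar, with start group 2 between 6.23 TPM (propionate 4) and 31.6 TPM (propionate 1).

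Propionate 1 and chloride 3 were both above the other 4 libraries for 19 of the 47 tested members (40.4%), against 14.6% of all tested genes and 19.2% of the 1871 tested genes whose longest model was at least the members' median of 6654 nt. Both were below for 8 members (17.0%, against 15.1% of all genes). The 19 were Ezh2, Ehmt2, Kdm4a, Setd2, Kdm5c, Kdm2a, Nsd3, Setd7, Dot1l, Kdm6a, Kmt2a, Kmt2c, Kmt2d, Kdm2b, Kmt2b, Prdm2, Setd1a, Prdm10 and Kdm6b. Members have long models, with a median of 6654 nt against 2914 nt for all tested genes, and the part of length in this pattern was not tested beyond that share.

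Leaving these libraries out changes which groups overlap. Without propionate 1, groups did not overlap for 15 members (31.9%), 12 lower and 3 higher, beside 28.8% of all genes. Without both, 2 libraries remained in each group, and 18 members (38.3%) did not overlap, beside 37.8% of all genes. Member calls stayed at 0 in both cases. Without chloride 3, the log2 differences of Kdm3a and Kmt5a were -0.01 each, and those of Kdm2a, Nsd2 and Kdm5a were 0.02, 0.03 and 0.03. Without propionate 1 or without both, Kmt2d was the 1 member with an unadjusted p under 0.05 by limma. Beside it stood 6.76% of all genes without propionate 1 and 5.91% without both. The lowest limma adjusted p of a member was 0.672 without propionate 1 and 0.825 without both.

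Partners of these enzymes, in 6 lists, also gave no call. Of 65 tested partner genes, 0 had a limma adjusted p under 0.05, 1 had an unadjusted p under 0.05 (1.54%), and 10 did not overlap between the groups (15.4%), beside the shares of all genes given above. By sign 24 were higher and 41 lower, with a median log2 difference of -0.02. The 1 gene was Paxip1, a subunit of the Kmt2c and Kmt2d complexes, at 14.8, 13.4 and 14.04 TPM in propionate 1, 4 and 5, against 15.5, 16.9 and 17.1 TPM in chloride 1, 2 and 3. Every propionate library of Paxip1 lay below every chloride library, with a log2 difference of -0.21 ± 0.07 (SE), an unadjusted p of 0.0208 and a limma adjusted p of 0.913. Rbbp5, a core subunit of all COMPASS-type complexes, was at 26.2, 29.4 and 29.0 TPM in propionate and 29.9, 29.8 and 35.3 TPM in chloride libraries, also with no overlap.

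Among PRC2 partners 2 of 9 tested genes were higher by sign and 7 lower, with Jarid2 at 4.70 ± 0.0667 TPM in propionate and 5.05 ± 0.123 TPM in chloride libraries and Rbbp7 at 420.5 ± 24.7 and 399.2 ± 22.0 TPM (SD, n = 3 each). Among readers of silenced chromatin 2 of 12 were higher and 10 lower: Cbx7, a PRC1 chromodomain gene, was at 4.68 ± 0.336 TPM in propionate and 5.56 ± 0.309 TPM in chloride libraries, and Cbx5, the HP1 alpha gene, at 215 ± 3.13 and 227 ± 4.46 TPM. The groups of Jarid2, Cbx7 and Cbx5 did not overlap, and none of them passed the threshold (limma adjusted p 0.913 to 0.931). Partners of LSD1 and G9a had 5 of 7 higher, with Wiz at 5.05 ± 0.927 TPM in propionate and 3.91 ± 0.608 TPM in chloride libraries and Rcor3 at 7.97 ± 1.16 and 9.28 ± 0.955 TPM. Other lysine methyltransferases and demethylases had 6 of 17 higher and 11 lower, with Rsbn1 at 7.97 ± 0.285 TPM in propionate and 9.09 ± 0.804 TPM in chloride libraries and Jmjd6 at 69.4 ± 4.02 and 74.8 ± 1.44 TPM. Of genes that supply, recycle or use S-adenosylmethionine, 5 of 9 were higher. Mat2a, the synthetase subunit, was at 163 ± 0.771 TPM in propionate and 176 ± 9.76 TPM in chloride libraries. Mtrr, which reactivates methionine synthase, was at 19.4 ± 0.749 and 20.6 ± 0.292 TPM. The groups of Mat2a and of Mtrr did not overlap.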

How the data were processed

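Per the labels' protocols, RNA came from an RNeasy Mini Plus extraction, and libraries were of the TruSeq Stranded Total RNA Gold type. Per the submitters' processing notes, bcl2fastq, fastp, HISAT2, StringTie and the mouse build mm10 were used, with no role or order given. Per the file headers, StringTie 2.1.1 estimated each library separately over a common set of 157296 transcript models, and the authors deposited coverage, FPKM and TPM per model, with no other processed values (no counts) used here. Models comprised 142491 reference and 14805 assembled transcripts; 11710 assembled ones were joined to the reference gene with which they share most exonic bases. For strand settings, none is given in the sources used here.

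From the deposited TPM, values were summed per gene, and genes with a longest model under 200 nt were left out. Libraries were scaled by median ratios (factors 0.971, 0.966 and 0.967 for propionate, and 1.09, 0.990 and 1.03 for chloride). Those averaging at least 1 TPM entered a two-sided test by limma 3.58.1 on log2(TPM + 1), run in R 4.3.3 with lmFit and trended eBayes; p-values were adjusted by Benjamini-Hochberg over all tested genes and read at 0.05. The fit was tested on simulated data. Python 3.11.15, pandas 2.3.3, numpy 2.4.6 and matplotlib 3.10.9 read and drew the data.

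TPM hold no depth, so reads were estimated from coverage and model length for voom. Tested members had between 130 (Setd4, chloride 3) and 27610 (Nsd2, chloride 3) estimated reads per library. Of the tested members, 6 share a locus with another reference gene. The members, the role, partner and marker lists and the rules were chosen with earlier results of these data known. Values per library are given for the 6 members with the smallest p in each direction and the highest member of each role. Kmt2c, Kmt2d and some untested members are given per library outside that rule. They are not among the named members whose signs are counted below. Counts cover all tested members, but 1 of them is not reported here. For each partner list the 2 genes with the smallest p are given. Alternatives changed scaling, pseudocount, filter, libraries, weights, a term for the pair of propionate 1 and chloride 3, voom, reference transcripts alone and sums per assembled locus.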

Additional observations from a re-analysis of the deposited data

How the results depend on the processing

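No paired analysis was possible because propionate libraries (1, 4 and 5) and chloride libraries (1, 2 and 3) share only the number 1. No member gene, member transcript or partner gene passed the threshold under the 16 alternatives run on genes or the 12 run on transcripts, and the lowest limma adjusted p of a named member was 0.374 (Nsd3, library weights). Over all genes, calls numbered 1 in the reported fit, 0 without a filter and with voom, 2 with library weights and when only genes averaging at least 5 TPM were tested, 6 without both chloride 3 and propionate 1, and 1 to 4 when single libraries were left out. Members with an unadjusted p under 0.05 numbered 1 in unscaled TPM (Setd5, 7.53% of all genes), with a term for that pair (Prdm10, 8.65%), without the pair (Kmt2d, 5.91%) and with voom (Nsd1, 5.33%). They numbered 2 with reference transcripts alone (Kdm4b and Setd5, 4.78%), 0 with library weights (14.1%), and 0 to 1 when single libraries were left out (3.10% to 6.76%). Members whose groups did not overlap numbered 4 in unscaled TPM (15.8% of all genes) and with reference transcripts alone (10.8%), 0 with a mean of at least 5 TPM (11.1%, Kdm5b is then not tested), 2 with voom (12.0%), 18 without the pair (37.8%), and 2 to 15 when single libraries were left out (17.8% to 28.8%). The members' median log2 difference was -0.13 in unscaled TPM, where that of all genes was -0.08. Of 369 log2 differences of 22 named members under 17 settings, 26 had the other sign, and 12 members kept their sign throughout; the cause was not tested. In unscaled TPM the sign changed for Setd3 (-0.00847), Prdm4 (-0.0321), Suv39h1 (-0.0386), Kdm6a (-0.0623) and Kmt2e (-0.0756), and with reference transcripts alone for Setd3 (-0.0303). With library weights it changed for Nsd1 (0.0378), Prdm4 (-0.0061), Suv39h1 (-0.00658), Nsd2 (0.0543), Kdm6a (-0.00862) and Kdm5a (0.0201). With voom it changed for Kdm6a (-0.0109) and Kdm5a (0.00888), and without the pair for Nsd2 (0.0398), Kdm6a (-0.0228) and Kdm5a (0.0988). When single libraries were left out, values ran between -0.2 and 0.0382 for Dot1l, -0.067 and 0.0177 for Kdm2a, -0.0746 and 0.0293 for Nsd2, -0.0416 and 0.0744 for Kdm6a, -0.000712 and 0.0332 for Kmt2e, and -0.0954 and 0.0432 for Kdm5a.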
